A study of Rattus norvegicus with 52 samples.

Results

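The proteasome genes were followed in the kidneys of 26 male rats as the group of probe sets whose only gene symbol starts with Psma, Psmb, Psmc, Psmd, Psme, Psmf or Psmg. The Affymetrix RAE230A and RAE230B chips held 61 such probe sets for 46 genes (46 probe sets on RAE230A and 15 on RAE230B), out of 20253 probe sets for 13807 genes with a single symbol. Of these, 59 probe sets for 45 genes reached the median level of their chip and were tested. The probe set of Psmc3ip and 1 of 3 probe sets of Psmd11 did not. Each gene was stood for by its tested probe set with the highest mean, and 10 genes had several probe sets. Psmc3ip and Psme3ip1, which share the prefix, encode partner proteins of a subunit and no subunit themselves. Psme3ip1 is counted among the 45 tested genes, in a role of its own.

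The rats were of 3 strains. Dahl SS/Jr (S) rats are inbred and salt-sensitive, and ET3x1 and ET3x2 name the congenic strains, which carry DNA of a salt-resistant strain (R) in 1 region of an otherwise S genome. The labels used here do not state the ends of these regions, so no member was placed inside or outside them. Weaning was at 30 days of age, for all rats to a diet with 0.4% NaCl (low salt), and at 39 to 41 days some of each strain were moved to 4% NaCl (high salt) for 24 hours, so that all were killed at 40 to 42 days of age. There were 5 S rats on each diet and 4 rats of each congenic strain on each diet, and the left kidney of every rat gave 1 RNA sample for both chips, so the animal was the replicate. A whole kidney mixes many cell types, and in such bulk RNA fewer cells of a type and less RNA per cell cannot be told apart.

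The proteasome is the large protease that degrades proteins tagged with ubiquitin. Its barrel-shaped 20S core is built of outer alpha rings, which form the gate, and inner beta rings, in which Psmb5, Psmb6 and Psmb7 encode the catalytic subunits. Immune stimuli replace these with Psmb8, Psmb9 and Psmb10 to give the immunoproteasome, which favours peptides for antigen presentation. The 19S cap recognises ubiquitin and unfolds substrates with a ring of ATPases (Psmc genes) and a set of non-ATPase subunits (Psmd genes), while Psmg genes and some Psmd genes encode assembly chaperones and Psme genes encode other caps.

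Deposited values are on the log2 scale, so a difference of 1 is a doubling. Differences are given ± the standard error of a limma fit over all probe sets, and a gene was called at a Benjamini-Hochberg adjusted p below 0.05 over both chips. Kidney markers were at high levels: Umod, a thick ascending limb protein, had a mean of 13.32 and the proximal tubule phosphate transporter gene Slc34a1 a mean of 13.18, while the podocyte gene Nphs1 was below the level for testing. On RAE230A, S low salt replicate 1 and ET3x2 low salt replicate 3 differed most from the rest of their groups. Counts of members called without both are given beside the low salt comparisons.

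Across the 45 tested genes, 23 were higher in ET3x1 than in S on low salt and 15 in ET3x2, while 2 and 1 were on high salt. The share of all tested genes called higher also fell, from 21.4% on low salt to 4.39% on high salt in ET3x1. In ET3x2 it went from 12.9% to 1.36%. The median deviation of the 45 genes from their own means over all rats was -0.30, -0.11, -0.03, -0.24 and 0.00 in the 5 S rats on low salt. This median was 0.01, 0.11, 0.09 and 0.13 in the ET3x1 rats on low salt, all above every S rat on that diet. In ET3x2 on low salt it was 0.20, 0.10, -0.10 and -0.02, which overlapped S. On high salt it ran from -0.11 to 0.05 in S, from -0.03 to 0.13 in ET3x1 and from 0.00 to 0.10 in ET3x2. S low salt replicates 1 and 4 were the lowest of all rats, with 2 and 3 of the 45 genes above their means.

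**Figure D1:**
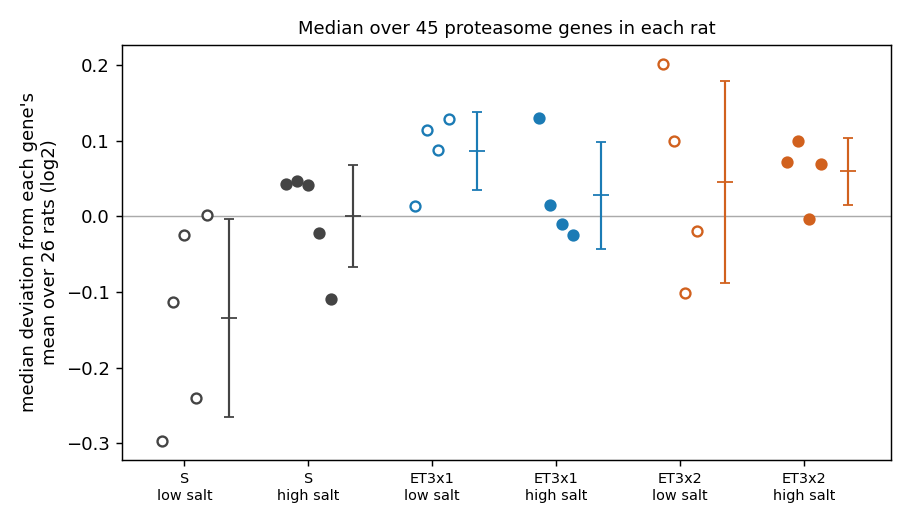
Median over the 45 tested proteasome genes of the log2 deviation from each gene's mean over 26 rats, by strain and diet. Points are rats (open on low salt, filled on high salt), and the bars beside them show the group mean ± SD (n = 5 for S, 4 for the other groups); the S low salt rats reach down to -0.30 and the 4 ET3x1 low salt rats lie at or above 0.01.

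On low salt, 23 of the 45 genes were higher in ET3x1 than in S and 0 were lower by the limma fit, against 21.4% of the 8825 tested genes with a single symbol called higher and 8.42% called lower (either way, 29.8%). The 23 include Psme3ip1, which encodes no subunit. The median difference of the members was 0.25, and that of all genes 0.05. In ET3x2, 15 members were higher and 1 lower than in S, against 12.9% and 9.29% of all genes (either way, 22.2%), with a median of 0.17 for the members and 0.04 for all genes. The 2 comparisons share the 5 S rats. Counts by diet were added after the values were seen. In 18 of 45 members (40%) all 4 ET3x1 rats lay above all 5 S rats, compared with 15.6% of all genes, and in ET3x2 this held for 3 members (6.67%, with 6.24% of all genes).

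Without S low salt replicate 1 and ET3x2 low salt replicate 3 together, 17 members were higher and 1 lower in ET3x1, and 20 were higher and 1 lower in ET3x2. Leaving out ET3x1 low salt replicate 2 gave 14 for ET3x1, and leaving out ET3x2 low salt replicate 1 gave 7 for ET3x2. The 3' to 5' log2 ratio of the Gapdh control, a measure of RNA integrity, averaged 0.83 in S, 0.88 in ET3x1 and 0.95 in ET3x2 on low salt (RAE230A), and with that ratio as a covariate 21 members were called in ET3x1 and 8 in ET3x2, while the share of all probe sets called went from 26.8% to 25.4% and from 18.2% to 9.97%. With a fit of the compared groups alone 17 and 5 members were called, with 19.5% and 9% of all probe sets. After quantile normalization the ET3x1 count was 20 higher and 3 lower.

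**Figure D2:**
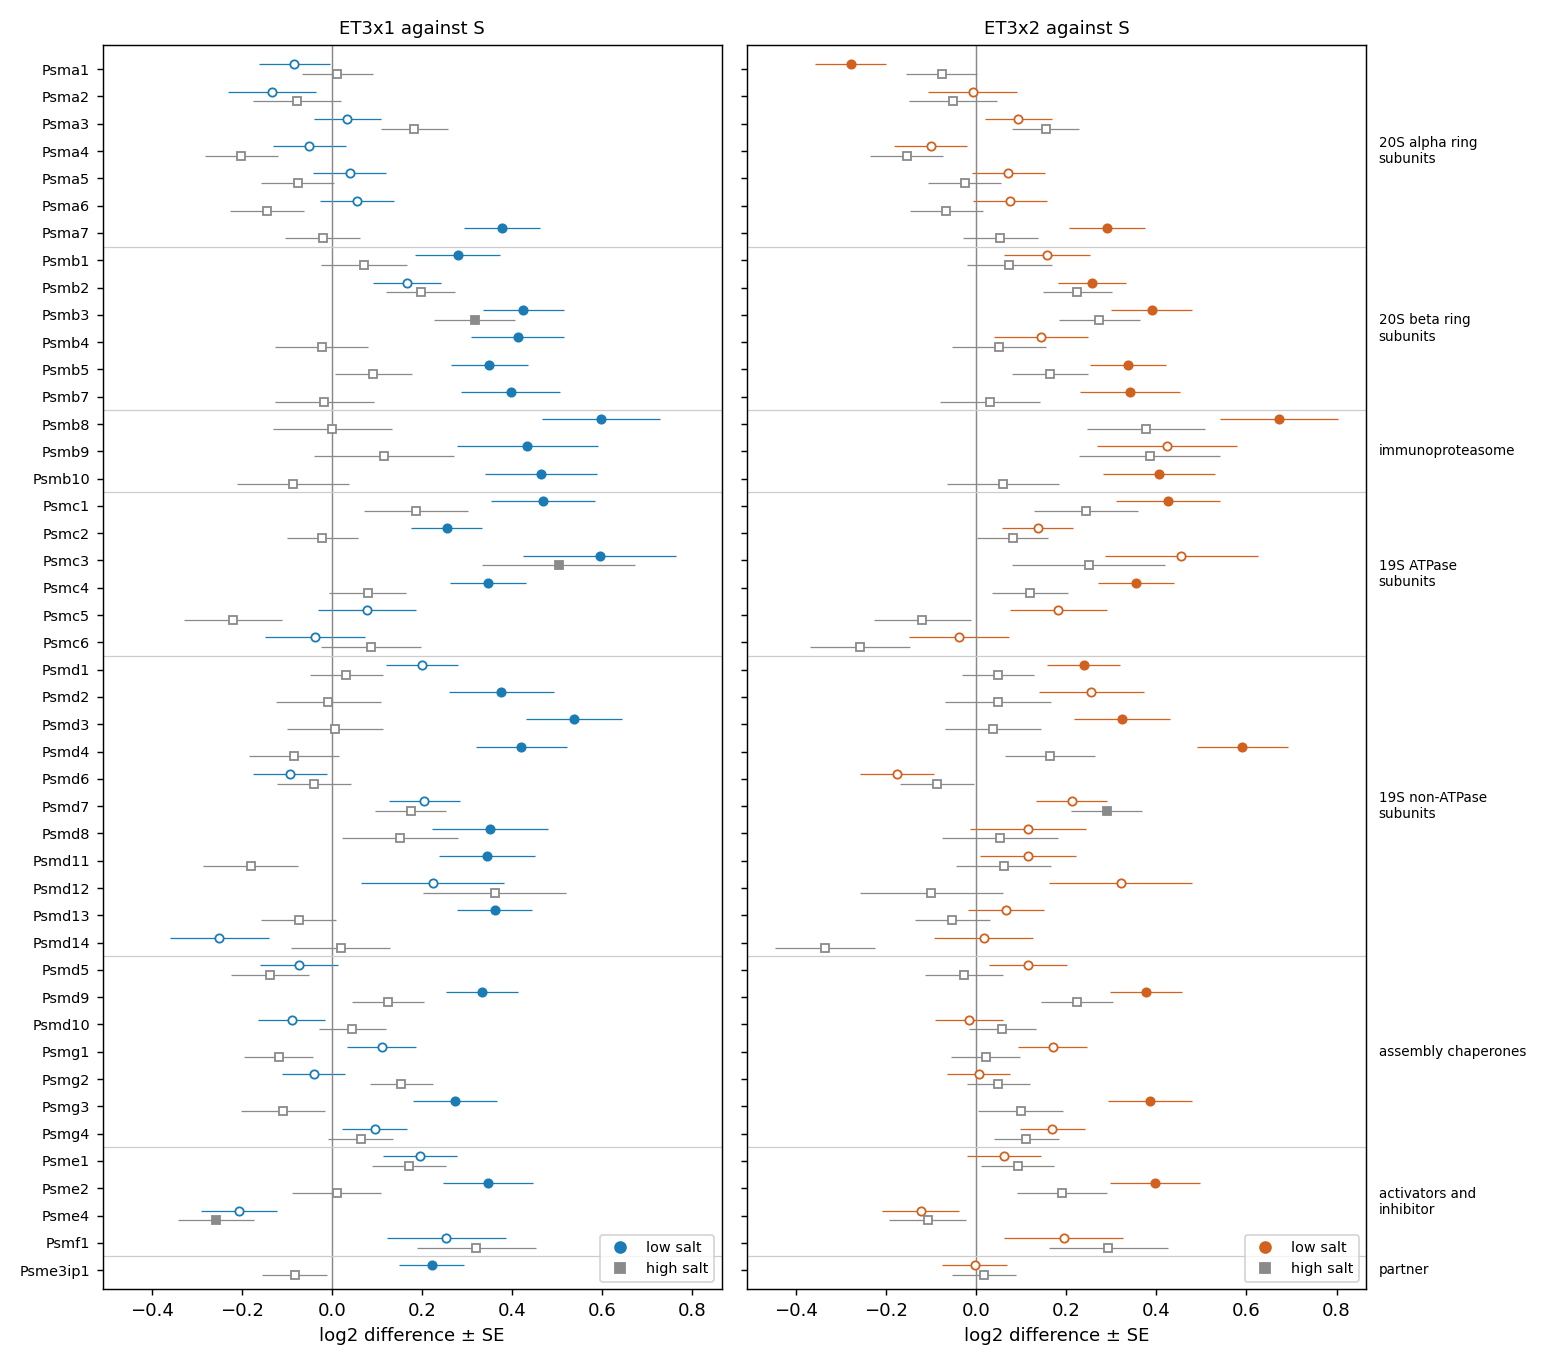
Log2 difference ± SE from S of the 45 tested proteasome genes in ET3x1 (left) and ET3x2 (right), on low salt (coloured circles) and high salt (grey squares), ordered by role. Filled symbols passed an adjusted p of 0.05; on low salt 23 genes passed in ET3x1 and 16 in ET3x2, on high salt 3 and 1.

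Within the 20S core the beta ring held most of the calls. On low salt 5 of the 6 tested beta ring genes were higher in ET3x1 and 4 of 6 in ET3x2, with median differences of 0.37 and 0.30. Psmb3, a structural beta subunit, measured 10.12, 10.27, 10.32, 10.18 and 10.40 in S on low salt. In ET3x1 on low salt it measured 10.59, 10.82, 10.65 and 10.67, above every S rat, and in ET3x2 10.86, 10.62, 10.33 and 10.78, of which 1 rat lay within the S range. The differences were 0.43 ± 0.09 (limma adjusted p = 0.00166) and 0.39 ± 0.09 (limma adjusted p = 0.00422). Psmb3 also passed on high salt in ET3x1 (0.32 ± 0.09, limma adjusted p = 0.0194), and its difference in ET3x2 on high salt was 0.27 ± 0.09 (limma adjusted p = 0.0756). Psmb5, which encodes the subunit with chymotrypsin-like activity, was higher on low salt by 0.35 ± 0.09 in ET3x1 and 0.34 ± 0.09 in ET3x2. Psmb7, with trypsin-like activity, was higher by 0.40 ± 0.11 and 0.34 ± 0.11, and Psmb4 by 0.41 ± 0.10 and Psmb1 by 0.28 ± 0.10 in ET3x1. The corresponding differences in ET3x2, 0.14 ± 0.10 and 0.16 ± 0.10, did not pass, whereas Psmb2 passed there (0.26 ± 0.08). The call of Psmb7 in ET3x2 was lost in 6 of the 26 fits that left out 1 rat and under 3 other settings (0.22 to 0.44 over all alternatives), and that of Psmb1 in ET3x1 in 5 fits and under 4 settings (0.15 to 0.33). For Psmb5 the 2 RAE230B probe sets gave no call, with low salt differences in ET3x1 of -0.07 ± 0.07 and 0.08 ± 0.08.

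The alpha ring differed less. Of its 7 tested genes, Psma7 was the single one called higher on low salt in either congenic strain, and the other 6 ranged from -0.13 to 0.06 in ET3x1. The median over the ring was 0.03 in ET3x1 and 0.07 in ET3x2. Psma1 was lower in ET3x2: it measured 9.97, 10.04, 9.94, 9.90 and 10.01 in S on low salt and 9.63, 9.82, 9.89 and 9.43 in ET3x2. No ET3x2 rat reached the lowest S rat on that diet (-0.28 ± 0.08, limma adjusted p = 0.0155).

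Psma7 encodes an alpha ring subunit and lies on chromosome 3, as do the members Psmd5, Psmb7, Psmd14, Psmc3 and Psmf1. In the order of 1863 protein-coding genes of that chromosome in the GRCr8 assembly it is number 1804, with 59 genes beyond it. Its probe set on RAE230A gave 10.47, 10.65, 10.75, 10.38 and 10.71 in S on low salt. The ET3x1 rats on low salt had 10.84, 11.10, 11.00 and 10.94, all above S, and the ET3x2 rats 11.13, 10.92, 10.72 and 10.76, of which 1 lay within the S range. The differences were 0.38 ± 0.08 (limma adjusted p = 0.00246) and 0.29 ± 0.08 (limma adjusted p = 0.0181). On high salt the values overlapped: 10.94, 10.82, 10.85, 10.77 and 10.67 in S, 10.82, 10.84, 10.78 and 10.73 in ET3x1, and 10.88, 10.84, 10.78 and 10.96 in ET3x2. There ET3x1 and ET3x2 differed from S by -0.02 ± 0.08 and 0.05 ± 0.08. The low salt call in ET3x2 was lost without S low salt replicate 4, ET3x2 low salt replicate 1 or ET3x2 low salt replicate 2, and under 3 other settings (limma adjusted p up to 0.119 over all alternatives, with differences of 0.21 to 0.34). Averaged over the diets Psma7 was higher than S by 0.18 ± 0.06 in ET3x1 (limma adjusted p = 0.0234) and 0.17 ± 0.06 in ET3x2 (limma adjusted p = 0.0321), and the congenic strains differed by -0.01 ± 0.06. The averaged call in ET3x2 was lost in 6 of the 26 fits that left out 1 rat and under 2 other settings (limma adjusted p up to 0.0978), and that in ET3x1 in 1 fit and under 1 setting (limma adjusted p up to 0.0975).

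The RAE230B probe set of Psma7 behaved differently. It gave 8.23, 8.18, 7.90, 8.62 and 8.14 in S on low salt and 7.48, 7.36, 7.79, 7.51 and 7.19 in S on high salt, with every high salt rat below every low salt rat. ET3x1 had 8.11, 8.06, 8.03 and 8.20 on low salt and 7.96, 7.70, 7.22 and 7.56 on high salt, again without overlap. ET3x2 had 8.37, 8.20, 8.50 and 8.12 on low salt and 8.05, 8.13, 8.22 and 7.93 on high salt, which overlapped. By this probe set Psma7 was lower on high salt in S (-0.75 ± 0.12, limma adjusted p = 0.00119) and in ET3x1 (-0.49 ± 0.14, limma adjusted p = 0.0156), and the difference in ET3x2 was -0.21 ± 0.14 (limma adjusted p = 0.604). The ET3x1 call was lost in 1 of the 26 fits that left out 1 rat and under 3 other settings (-0.61 to -0.36, limma adjusted p up to 0.267). On RAE230B the mean Gapdh 3' to 5' log2 ratio in ET3x1 was 0.78 on low salt and 0.42 on high salt. The interaction test of ET3x2 against S gave 0.53 ± 0.18 (limma adjusted p = 0.335). On high salt ET3x2 was higher than S by 0.62 ± 0.13 (limma adjusted p = 0.0118) and higher than ET3x1 by 0.47 ± 0.14 (limma adjusted p = 0.0304), while on low salt ET3x2 and S differed by 0.08 ± 0.13. Averaged over the diets, ET3x2 was higher than S by 0.35 ± 0.09 and than ET3x1 by 0.34 ± 0.10 (limma adjusted p = 0.0278, lost in 4 of the 26 fits that left out 1 rat and under 3 other settings). The salt difference of the RAE230A probe set was 0.22 ± 0.08 in S, -0.18 ± 0.09 in ET3x1 and -0.02 ± 0.09 in ET3x2 with no call, so the 2 probe sets do not give 1 account of Psma7, and the files do not say which transcripts each reads.

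**Figure D3:**
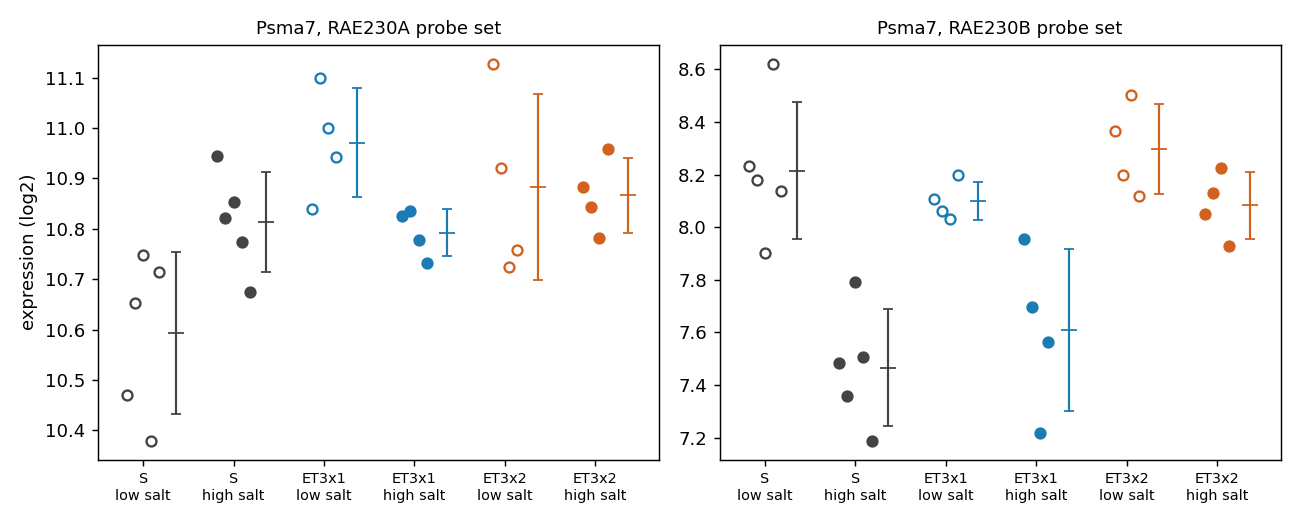
Log2 expression of Psma7 in each rat by the RAE230A probe set (left) and the RAE230B probe set (right). Points are rats (open on low salt, filled on high salt), and bars show the group mean ± SD (n = 5 for S, 4 for the other groups). On the left the S low salt rats run from 10.38 to 10.75, and on the right the S high salt rats run from 7.19 to 7.79.

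All 3 tested immunoproteasome genes were higher in ET3x1 than in S on low salt, and Psmb8 and Psmb10 were in ET3x2. Psmb8 and Psmb9 lie on chromosome 20, in the major histocompatibility complex, and Psmb10 on chromosome 19. Psmb8 measured 7.21, 7.45, 7.99, 7.13 and 7.56 in S on low salt, 8.00, 7.89, 8.11 and 8.28 in ET3x1, and 8.50, 8.05, 7.76 and 8.25 in ET3x2. S low salt replicate 3 reached the range of both congenic strains and the other S rats did not. The differences were 0.60 ± 0.13 (1.51-fold, limma adjusted p = 0.00226) and 0.67 ± 0.13 (1.59-fold, limma adjusted p = 0.00128). On high salt S rats had 7.98, 7.94, 7.90, 7.87 and 7.85, ET3x1 rats 8.09, 7.72, 7.93 and 7.89, and ET3x2 rats 8.28, 8.31, 8.17 and 8.38. All ET3x2 rats lay above all S rats on that diet, with a difference of 0.38 ± 0.13 that missed the threshold (limma adjusted p = 0.0908), and ET3x1 differed from S by 0.00 ± 0.13.

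Psmb10 was higher on low salt by 0.47 ± 0.12 in ET3x1 (limma adjusted p = 0.00813) and by 0.41 ± 0.12 in ET3x2 (limma adjusted p = 0.0245). Its S rats had 7.65, 7.81, 8.16, 7.71 and 7.98, its ET3x1 rats 8.17, 8.43, 8.33 and 8.39, and its ET3x2 rats 8.80, 8.30, 7.80 and 8.18. ET3x1 lay wholly above S, and ET3x2 overlapped it. The ET3x2 call of Psmb10 was lost in 4 of the 26 fits that left out 1 rat and under 3 other settings, and its difference ran from 0.23 to 0.56 over all alternatives. Psmb9 was higher in ET3x1 by 0.43 ± 0.16 (limma adjusted p = 0.0394), with 0.42 ± 0.16 in ET3x2 (limma adjusted p = 0.058). The ET3x1 call of Psmb9 was lost in 5 of these fits and under 3 other settings (limma adjusted p up to 0.12 over all alternatives). Averaged over both diets, all 3 were called in ET3x2 (Psmb8 0.52 ± 0.09, Psmb9 0.40 ± 0.11, Psmb10 0.23 ± 0.09) and Psmb8 in ET3x1 (0.30 ± 0.09). Psmb10 in ET3x2 passed no longer in 20 of the 26 fits that left out 1 rat and under 7 other settings (limma adjusted p up to 0.153 over all alternatives).

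**Figure D4:**
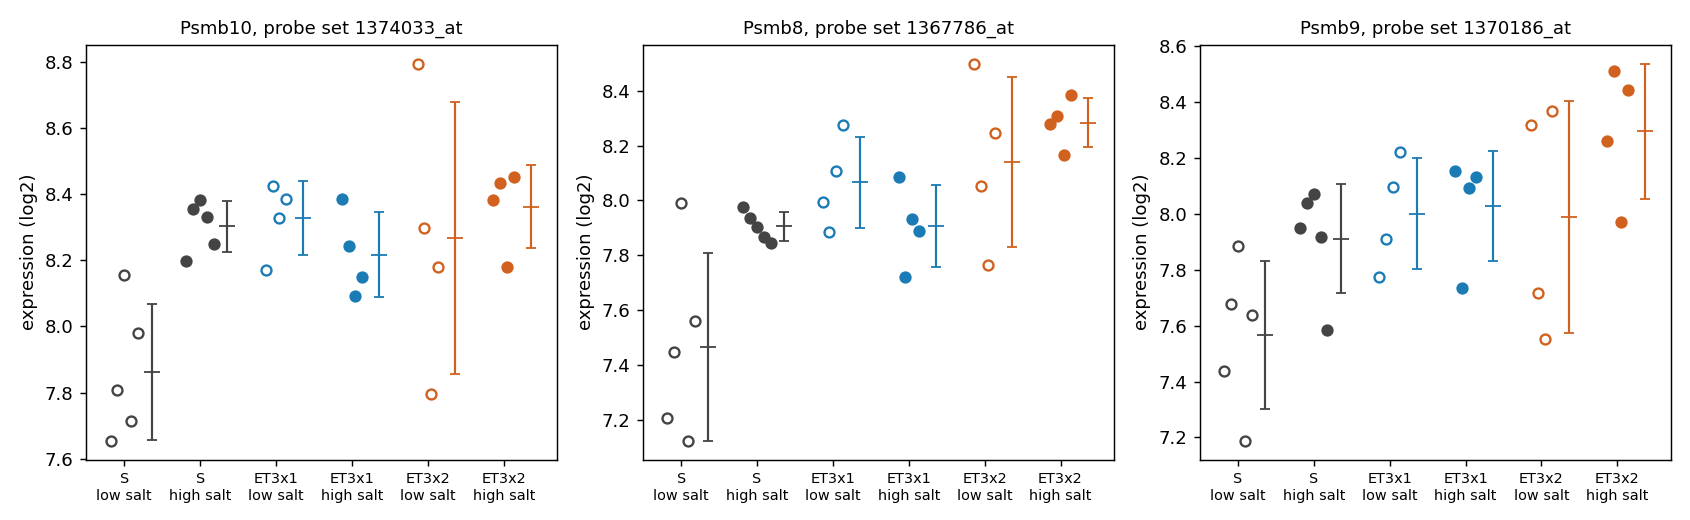
Log2 expression of the immunoproteasome genes in each rat by strain and diet. Points are rats (open on low salt, filled on high salt), and bars show the group mean ± SD (n = 5 for S, 4 for the other groups); for Psmb8 the S low salt rats run from 7.13 to 7.99 and the ET3x2 high salt rats from 8.17 to 8.38.

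Markers of leukocytes, cells that carry immunoproteasomes, also differed between the strains. On low salt 10 of 19 tested leukocyte markers were higher than in S and 0 lower in each congenic strain, among them in ET3x1 RT1-Db1 (0.86 ± 0.17), C1qc (0.78 ± 0.16) and C1qa (0.71 ± 0.13). The summed level (log2) of the 20 markers was 13.45 to 13.79 in S, 13.91 to 14.10 in ET3x1 and 13.65 to 14.12 in ET3x2 on low salt, and 13.71 to 13.89, 13.78 to 13.89 and 13.98 to 14.05 on high salt. Ptprc, the defining pan-leukocyte gene, had a mean of 5.48 and was below the level for testing. Of 11 tested genes of antigen presentation and interferon response, 2 were higher and 1 lower in ET3x1 and 1 was higher in ET3x2. These were Tapbp, a peptide loading factor (0.28 ± 0.08 and 0.22 ± 0.08), Irf7 (0.34 ± 0.12 in ET3x1) and RT1-M3-1 (-0.22 ± 0.07 in ET3x1). Erythroid markers had 0 calls among 3 tested in either strain. Of 10 tested kidney markers, 2 were higher and 4 lower in ET3x1 and 5 were lower in ET3x2, with Lrp2 of the proximal tubule at -0.33 ± 0.08 and -0.55 ± 0.08 and the podocyte gene Synpo at -0.43 ± 0.08 and -0.26 ± 0.08. The part of cell composition in the members' differences was not tested.

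In the 19S cap, 4 of 6 ATPase genes were higher in ET3x1 on low salt and 2 of 6 in ET3x2. Psmc3 had the largest difference of the ATPases in ET3x1. It measured 8.60, 8.93, 9.27, 9.01 and 9.37 in S on low salt, 9.60, 9.54, 9.68 and 9.71 in ET3x1, which lay wholly above S, and 9.81, 9.46, 8.86 and 9.84 in ET3x2, which overlapped it. The differences were 0.60 ± 0.17 (limma adjusted p = 0.012) and 0.45 ± 0.17 (limma adjusted p = 0.0622). On high salt Psmc3 was also higher in ET3x1, with 9.79, 9.75, 9.57 and 9.49 against 9.08, 9.10, 8.98, 9.42 and 9.15 in S (0.50 ± 0.17, limma adjusted p = 0.0464). That call was lost in 14 of the 26 fits that left out 1 rat and under 5 other settings (down to 0.26, limma adjusted p up to 0.376). Psmc1 was higher on low salt in both strains (0.47 ± 0.12 and 0.43 ± 0.12), as was Psmc4 by its RAE230A probe set (0.35 ± 0.08 and 0.35 ± 0.08). The 2 RAE230B probe sets of Psmc4 had no call on low salt. Psmc5 and Psmc6 had none in either strain.

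Of the 11 non-ATPase genes of the cap, 6 were higher in ET3x1 on low salt and 3 in ET3x2. Psmd4, a ubiquitin receptor, measured 8.14, 8.26, 8.50, 8.13 and 8.49 in S on low salt, 8.56, 8.77, 8.76 and 8.81 in ET3x1 and 9.15, 8.99, 8.58 and 8.86 in ET3x2. Every congenic rat lay above every S rat (0.42 ± 0.10, limma adjusted p = 0.00397, and 0.59 ± 0.10, limma adjusted p = 4.0e-04). On high salt the ranges met again, with 8.34 to 8.52 in S, 8.26 to 8.42 in ET3x1 and 8.43 to 8.87 in ET3x2. Psmd3, a scaffold subunit of the lid, was higher by 0.54 ± 0.11 and 0.32 ± 0.11. Psmd2, Psmd8, Psmd11 and Psmd13 were called in ET3x1 (0.38 ± 0.12, 0.35 ± 0.13, 0.34 ± 0.11 and 0.36 ± 0.08) and not in ET3x2 (0.25 ± 0.12, 0.11 ± 0.13, 0.12 ± 0.11 and 0.07 ± 0.08). Psmd1 was called in ET3x2 (0.24 ± 0.08) and had 0.20 ± 0.08 in ET3x1. Calls were lost in 7 of the 26 fits that left out 1 rat for Psmd8 in ET3x1, in 6 for Psmd3 and 5 for Psmd1 in ET3x2, and in 4 each for Psmd2 and Psmd11 in ET3x1, and under 1 to 4 other settings for each. The deubiquitinase gene Psmd14 went below S in ET3x1 without a call (-0.25 ± 0.11).

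Among assembly chaperones, 2 of 7 genes were higher on low salt in each strain, Psmd9 (0.33 ± 0.08 and 0.38 ± 0.08) and Psmg3 (0.27 ± 0.09 and 0.39 ± 0.09). The RAE230B probe set of Psmd9 gave -0.03 ± 0.08 and -0.07 ± 0.08. Psmg1, Psmg2, Psmg4, Psmd5 and Psmd10 ranged from -0.09 to 0.11 in ET3x1 and from -0.02 to 0.17 in ET3x2. Of the activators, Psme1 and Psme2 encode the interferon-induced PA28 cap. Psme2 was higher on low salt by 0.35 ± 0.10 in ET3x1 and 0.40 ± 0.10 in ET3x2, and Psme1 differed by 0.20 ± 0.08 (limma adjusted p = 0.0737) and 0.06 ± 0.08 (limma adjusted p = 0.641). Psmf1, an inhibitor of the proteasome, had no call on either diet, although averaged over the diets it was higher in ET3x1 (0.29 ± 0.09).

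Psme4, which encodes the PA200 activator, went the other way. Its brightest probe set was lower in ET3x1 than in S on high salt (-0.26 ± 0.09, limma adjusted p = 0.0426) and averaged over the diets (-0.23 ± 0.06). The high salt call was lost in 5 of the 26 fits that left out 1 rat and under 6 other settings (limma adjusted p up to 0.207). A second probe set of Psme4 measured 8.62, 8.61, 8.82, 8.55 and 8.96 in S on low salt, 8.47, 8.07, 8.15 and 8.34 in ET3x1, and 8.21, 8.14, 8.43 and 8.30 in ET3x2. All congenic rats lay below all S rats (-0.45 ± 0.10, limma adjusted p = 0.00228, and -0.44 ± 0.10, limma adjusted p = 0.0036). On high salt this probe set gave -0.10 ± 0.10 in ET3x1 (limma adjusted p = 0.528) and -0.37 ± 0.10 in ET3x2 (limma adjusted p = 0.0372, lost in 6 of the 26 fits that left out 1 rat). The third probe set was lower in ET3x1 on both diets (-0.33 ± 0.10 and -0.34 ± 0.10).

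Sequences upstream of the members were also described, and any link between them and the differences above was not tested. Windows from 250 bases before to 30 after the start of transcription were taken from a set of RefSeq promoters (GRCr8). They were matched by gene identifier for 42 of the 46 genes. Windows of Psma7, Psmd6, Psmd12 and Psmd14 were not used here. Both strands were searched for 3 motifs: CCAAT, the box bound by NF-Y; TGACNNNGC, the core of the antioxidant response element; and GAAA, any 2 bases, GAAA, the core of the interferon-stimulated response element. CCAAT was in 22 of 42 member windows (52.4%) and in 36.5% of 27457 windows of the same length. The antioxidant core was in 7 (16.7%, with 11.4% of all windows), and the interferon core in 7 (16.7%, with 3.63%). The interferon core was in the windows of Psma4, Psmb3, Psmb8, Psmb10, Psmd7, Psme2 and Psmg4. Matches of different motifs or of 1 motif overlapped in 1 member window. A match is a description of letters and not a bound site. The windows of Psmc3, Psmd4, Psmb3, Psmb8 and Psmb10 are shown as examples from the genes with strain differences above, and do not stand for the members. Psmd3, Psmc1 and Psmb9, also called higher on low salt in ET3x1, are not shown, and their windows hold no interferon core. Capitals mark matches, with CCAAT read on the other strand as ATTGG, the antioxidant core as GC, any 3 bases, GTCA and the interferon core as TTTC, any 2 bases, TTTC, and each line runs 5′ to 3′ on the strand of the gene. They lie at chr3:97487393-97487672 (plus strand), chr2:185297172-185297451 (minus), chr10:83193537-83193816 (plus), chr20:4657002-4657281 (minus) and chr19:50743263-50743542 (minus).
Psmc3: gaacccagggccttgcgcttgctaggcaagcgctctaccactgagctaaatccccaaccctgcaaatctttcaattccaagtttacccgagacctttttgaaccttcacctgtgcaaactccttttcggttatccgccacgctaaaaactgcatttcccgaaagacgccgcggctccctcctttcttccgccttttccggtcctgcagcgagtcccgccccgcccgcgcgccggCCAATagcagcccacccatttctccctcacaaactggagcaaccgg
Psmd4: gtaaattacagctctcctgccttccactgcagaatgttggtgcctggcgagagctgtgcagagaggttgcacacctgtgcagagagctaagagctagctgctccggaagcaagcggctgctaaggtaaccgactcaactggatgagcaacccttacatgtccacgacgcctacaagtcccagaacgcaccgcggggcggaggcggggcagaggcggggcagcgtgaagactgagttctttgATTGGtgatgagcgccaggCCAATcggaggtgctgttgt
Psmb3: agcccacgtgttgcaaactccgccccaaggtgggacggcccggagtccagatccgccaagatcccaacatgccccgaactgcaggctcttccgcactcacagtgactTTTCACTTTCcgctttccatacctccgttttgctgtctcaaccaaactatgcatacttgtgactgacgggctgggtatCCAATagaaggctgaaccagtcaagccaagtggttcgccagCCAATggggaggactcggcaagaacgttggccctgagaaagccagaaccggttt
Psmb8: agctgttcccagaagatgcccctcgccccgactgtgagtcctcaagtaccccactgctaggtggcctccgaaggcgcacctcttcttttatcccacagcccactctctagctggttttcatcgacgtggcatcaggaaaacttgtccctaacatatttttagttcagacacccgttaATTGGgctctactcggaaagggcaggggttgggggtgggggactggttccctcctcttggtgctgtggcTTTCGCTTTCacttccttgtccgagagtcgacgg
Psmb10: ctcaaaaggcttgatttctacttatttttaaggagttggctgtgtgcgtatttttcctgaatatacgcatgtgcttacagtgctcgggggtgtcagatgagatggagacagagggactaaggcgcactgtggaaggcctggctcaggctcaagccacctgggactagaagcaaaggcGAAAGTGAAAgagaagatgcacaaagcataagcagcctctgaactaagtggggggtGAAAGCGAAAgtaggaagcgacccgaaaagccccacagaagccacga

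On high salt few members separated the strains. In ET3x1, Psmc3 and Psmb3 were higher and Psme4 lower than in S, 3 of 45 genes against 12.7% of all genes (4.39% higher and 8.35% lower). In ET3x2, Psmd7, a lid subunit, was higher (0.29 ± 0.08, limma adjusted p = 0.0372), 1 of 45 against 3.76% (1.36% higher and 2.4% lower). The call of Psmd7 was lost in 5 of the 26 fits that left out 1 rat and under 1 other setting (limma adjusted p up to 0.145). Its RAE230B probe set had no call, with 8.15 to 8.61 in S and 8.16 to 8.51 in ET3x2. Medians of the members were 0.01 in ET3x1 and 0.05 in ET3x2. In ET3x1 the count was 1 without S high salt replicate 1, 2 or 3 and 0 without ET3x1 high salt replicate 1, and it was 4 higher and 1 lower after quantile normalization and 2 higher and 0 lower after median centring. In ET3x2 it was 0 without S high salt replicate 2 or 3 or ET3x2 high salt replicate 2 or 4, and 2 without S low salt replicate 3, ET3x2 high salt replicate 1 or ET3x2 low salt replicate 3. Averaged over the diets, 17 members were higher and 1 lower in ET3x1 than in S (32.1% of all genes called, 18.8% higher and 13.4% lower) and 16 higher and 1 lower in ET3x2 (30.8%, 17.8% higher and 13% lower). After quantile normalization the ET3x1 split was 16 higher and 3 lower. The largest averaged differences in ET3x1 were those of Psmc3 (0.55 ± 0.12), Psmb3 (0.37 ± 0.06), Psmc1 (0.33 ± 0.08), Psmb8, Psmd12 (0.29 ± 0.11) and Psmf1. The call of Psmd12 was lost in 20 of the 26 fits that left out 1 rat and under 5 other settings (limma adjusted p up to 0.136). In ET3x2 they were those of Psmb8, Psmb9, Psmd4 (0.38 ± 0.07), Psmc3 (0.35 ± 0.12), Psmc1 (0.34 ± 0.08) and Psmb3 (0.33 ± 0.06), and Psma1 was lower (-0.18 ± 0.06).

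Between ET3x2 and ET3x1 limma called 0 of 45 members (10.2% of all genes), with 7 at an unadjusted p below 0.05. On low salt it was 0 (3.35% of all genes, 5 unadjusted) and on high salt 0 (6.44%, 7 unadjusted). The largest statistics of the averaged comparison belonged to Psmd4 (0.21 ± 0.08, limma adjusted p = 0.0689) and Psma1 (-0.14 ± 0.06, limma adjusted p = 0.113). On low salt they belonged to Psmd13 (-0.30 ± 0.09, limma adjusted p = 0.0656) and Psme3ip1 (-0.23 ± 0.08, limma adjusted p = 0.11), and on high salt to Psmd14 (-0.36 ± 0.12, limma adjusted p = 0.0509) and Psmc6 (-0.35 ± 0.12, limma adjusted p = 0.0584). Without ET3x2 low salt replicate 3 the averaged comparison had 2 calls.

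Few proteasome genes passed the test for 24 hours of high salt. In S, 41 of 45 genes had a positive difference, as did 5528 of all 8825 tested genes. The median of the members was 0.12 (all genes, 0.04). By the test 3 members rose, against 2.78% of all genes called (2.28% higher and 0.499% lower). They were Psmb10 (0.44 ± 0.12, limma adjusted p = 0.0379), Psmb7 (0.40 ± 0.10, limma adjusted p = 0.0343) and Psmd3 (0.40 ± 0.10, limma adjusted p = 0.0307). Psmb7 went from 10.11, 10.56, 10.99, 10.53 and 10.79 on low salt to 11.12, 10.99, 11.00, 10.95 and 10.90, and the ranges overlapped through S low salt replicate 3. Psmb8 missed the threshold in S (0.44 ± 0.12, limma adjusted p = 0.0521), with all but 1 of its low salt rats below all high salt rats. Psmb9 had 0.35 ± 0.15 and Psme2 0.26 ± 0.09 without a call. Of the leukocyte markers 2 of 19 rose in S and 0 fell. The calls of S depended on single rats: 0 members were called without S high salt replicate 1, 2 or 4 or without S low salt replicate 1, 2 or 4, 1 member was called without S high salt replicate 3, and 5 members were called without S low salt replicate 3 or 5.

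In ET3x1, 1 member rose and 4 fell with salt, against 14.3% of all genes called (4.94% higher and 9.38% lower). Psmd14 rose from 7.98, 7.94, 7.87 and 8.05 to 8.78, 8.68, 8.40 and 8.34, without overlap (0.59 ± 0.12, limma adjusted p = 1.0e-03). Its other 2 tested probe sets gave 0.16 ± 0.13 and 0.01 ± 0.15 and no call. Psmd11 (-0.40 ± 0.11), Psmd4 (-0.39 ± 0.11), Psmg3 (-0.30 ± 0.10) and Psme3ip1 (-0.29 ± 0.08) fell. Psmd11 went from 10.12, 10.41, 10.45 and 10.32 to 9.95, 10.01, 9.81 and 9.93, again without overlap, while its second probe set did not pass (-0.08 ± 0.10). The mean Gapdh 3' to 5' ratio was 0.88 in ET3x1 on low salt and 0.59 on high salt (RAE230A), and with it as a covariate 0 members and 0.0388% of all probe sets were called, against 15.9% of all probe sets without it. Over all alternatives, that covariate among them, Psmd14 was between 0.49 and 0.67 (limma adjusted p up to 0.214). Psmd11 was between -0.48 and -0.36 (limma adjusted p up to 0.345) and Psmd4 between -0.54 and -0.35 (limma adjusted p up to 0.391). Psme3ip1 ran from -0.32 to -0.22 (limma adjusted p up to 0.461) and Psmg3 from -0.39 to -0.14 (limma adjusted p up to 0.736). The second probe set of Psme4, which does not stand for the gene, was called higher with salt. It ran from 0.17 to 0.55 (limma adjusted p up to 0.67). The count was 2 without ET3x1 low salt replicate 2, 3 without ET3x1 low salt replicate 3 or ET3x1 high salt replicate 3, and 3 higher and 5 lower after quantile normalization.

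In ET3x2 limma called 0 members (0.453% of all genes), with 4 at an unadjusted p below 0.05, and 1 member without ET3x2 high salt replicate 4 or ET3x2 low salt replicate 3. The largest statistics were those of Psmd4 (-0.32 ± 0.11) and Psma1 (0.23 ± 0.08). Over the 3 strains together 3 members rose and 1 fell, against 13.8% of all genes (8.6% higher and 5.22% lower): Psmd14 (0.29 ± 0.06, limma adjusted p = 0.00266), Psme1 (0.20 ± 0.05, limma adjusted p = 0.00666) and Psma2 (0.18 ± 0.06, limma adjusted p = 0.0378) rose and Psmd4 fell (-0.20 ± 0.06, limma adjusted p = 0.0223). The call of Psma2 was lost in 12 of the 26 fits that left out 1 rat and under 4 other settings (limma adjusted p up to 0.568). Psme1 had 0.19 ± 0.08 in S, 0.17 ± 0.09 in ET3x1 and 0.22 ± 0.09 in ET3x2, none of which passed alone. Psmd14 did not rise in ET3x2, with 8.24, 8.38, 7.99 and 8.29 on low salt and 8.49, 8.03, 8.22 and 8.04 on high salt. The other tested probe sets of Psmd14 had no call over the strains. With the Gapdh ratio in the model 0 members were called, with 0.162% of all probe sets against 14.5% without it. Over all alternatives Psmd14 was between 0.23 and 0.32 (limma adjusted p up to 0.308). Psme1 was between 0.13 and 0.24 (limma adjusted p up to 0.239) and Psmd4 between -0.28 and -0.17 (limma adjusted p up to 0.551). The count was 7 without ET3x2 high salt replicate 4 or ET3x2 low salt replicate 3. After quantile normalization 2 were higher and 3 lower. Counted by probe set, 4 were higher and 2 lower over the strains. These include 2 that do not stand for their gene. The RAE230B probe set of Psma7 was lower (-0.54 to -0.42 over all alternatives, limma adjusted p up to 0.065). The second probe set of Psme4 was higher (0.09 to 0.32, limma adjusted p up to 0.792).

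**Figure D5:**
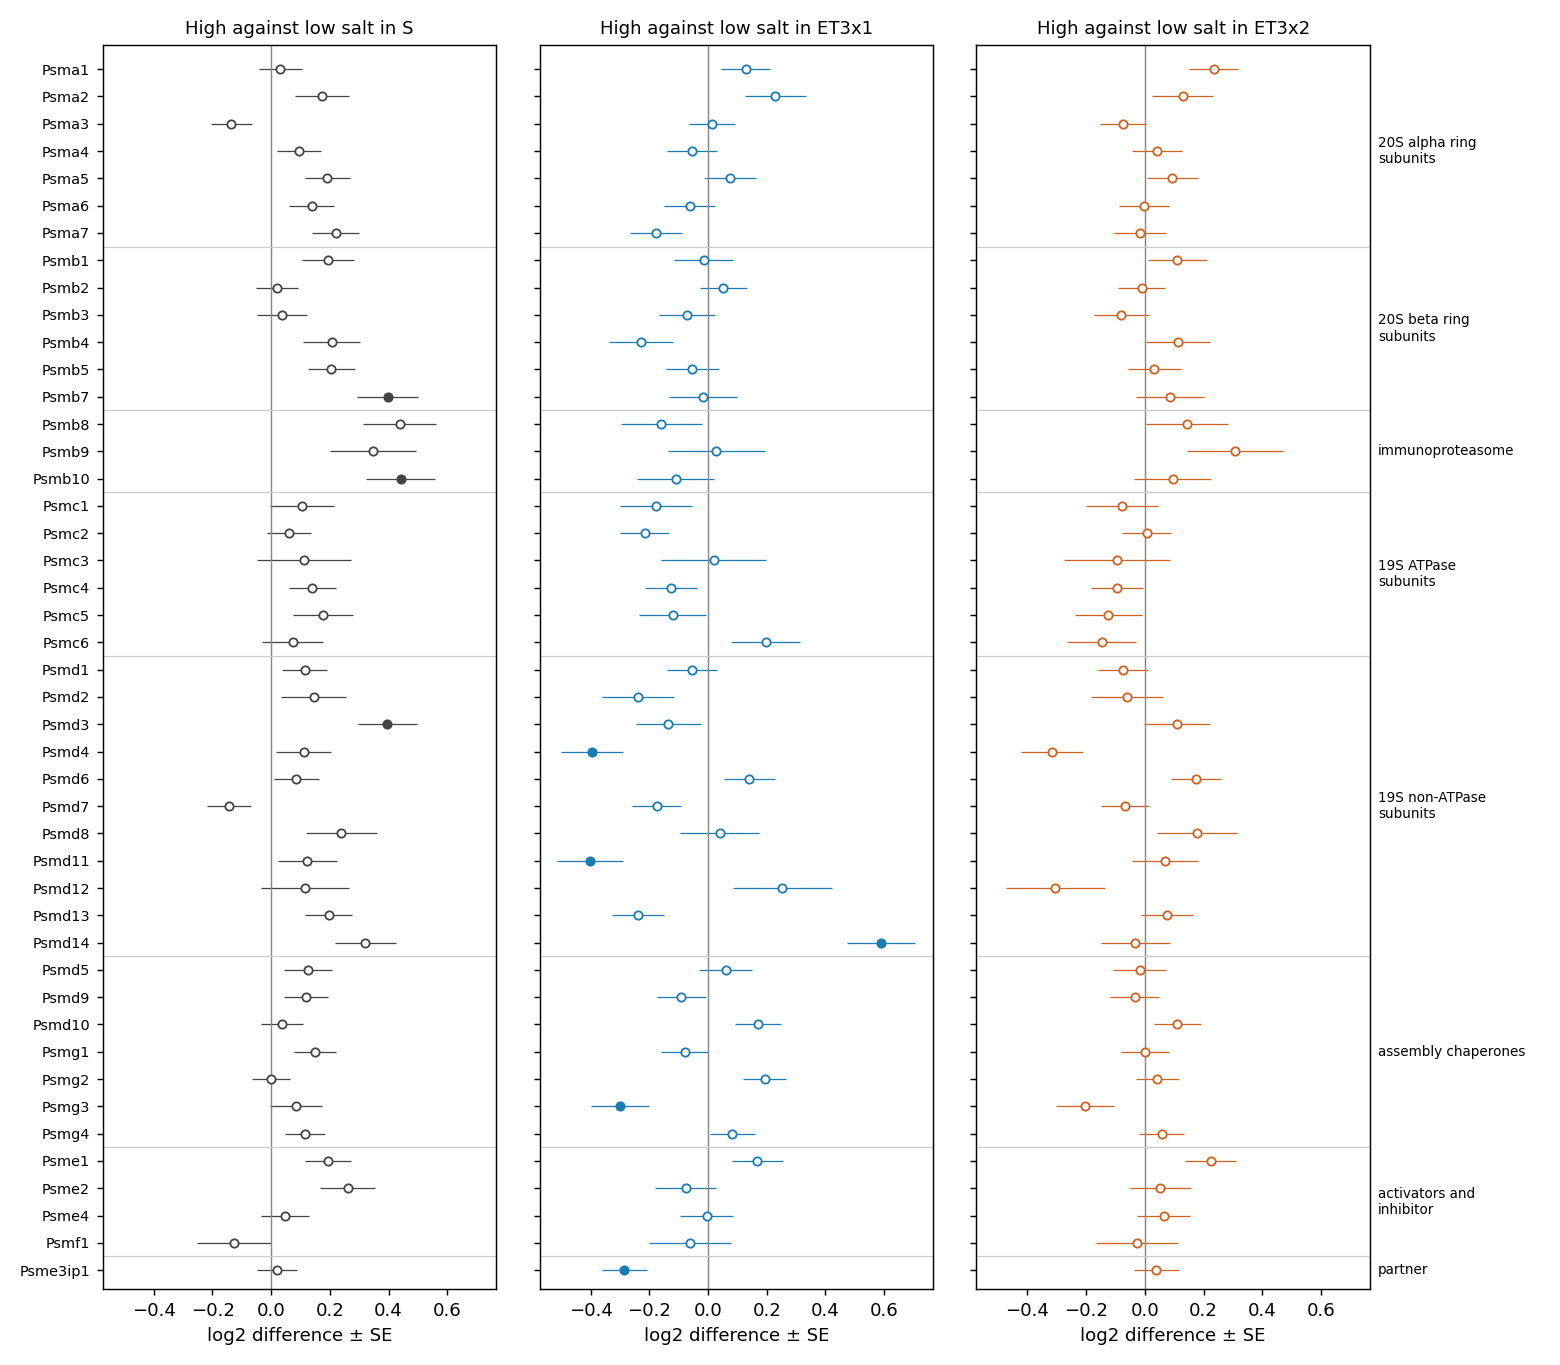
Log2 difference ± SE between high and low salt of the 45 tested proteasome genes in S, ET3x1 and ET3x2, ordered by role. Filled circles passed an adjusted p of 0.05: 3 in S, 5 in ET3x1 and 0 in ET3x2. In S, 41 of the 45 differences are positive, as are those of 5528 of all 8825 tested genes.

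The salt response of 5 members was lower in ET3x1 than in S by the interaction test, against 4.92% of all genes called lower and 0.884% higher (5.8% either way), and the median of the members was -0.20 (all genes, -0.08). These were Psmd3 (-0.53 ± 0.15, limma adjusted p = 0.0381), Psmd11 (-0.52 ± 0.15, limma adjusted p = 0.0397), Psmd4 (-0.50 ± 0.14, limma adjusted p = 0.0373), Psmd13 (-0.43 ± 0.12, limma adjusted p = 0.0309) and, by its RAE230A probe set, Psma7 (-0.40 ± 0.12, limma adjusted p = 0.0477). Of the 5, 4 encode non-ATPase subunits of the cap. The second probe set of Psmd11 had no call in this test. Psmd13 measured 8.35, 8.53, 8.61, 8.34 and 8.63 in S on low salt and 8.70, 8.83, 8.66, 8.62 and 8.64 on high salt. In ET3x1 it measured 8.71, 8.99, 8.87 and 8.84 on low salt and 8.77, 8.64, 8.51 and 8.54 on high salt, with salt differences of 0.20 ± 0.08 and -0.24 ± 0.09 that did not pass alone. For Psma7 the salt differences were 0.22 ± 0.08 in S and -0.18 ± 0.09 in ET3x1, neither called alone. Its call was lost in 18 of the 26 fits that left out 1 rat and under 6 other settings. The RAE230B probe set of Psma7 went the other way without a call, at 0.14 to 0.39 over all alternatives. The count of members was 0 without S high salt replicate 2, S low salt replicate 1, ET3x1 high salt replicate 3 or 4, or ET3x1 low salt replicate 2 or 3. It was 1 without S high salt replicate 1 or 4, S low salt replicate 2 or 4 or ET3x1 low salt replicate 4, 2 without ET3x1 high salt replicate 2 and 3 without S high salt replicate 3. It was 9 without S low salt replicate 3 and 8 without ET3x1 low salt replicate 1 or ET3x2 low salt replicate 1 or 3. With the Gapdh ratio as a covariate it was 0, with 0.174% of all probe sets called against 5.49% without it. Over all alternatives Psmd4 was between -0.60 and -0.44 (limma adjusted p up to 0.293) and Psmd11 between -0.59 and -0.40 (limma adjusted p up to 0.264). Psmd3 ran from -0.62 to -0.35 (limma adjusted p up to 0.367) and Psmd13 from -0.49 to -0.28 (limma adjusted p up to 0.414). Psma7 on RAE230A ran from -0.44 to -0.28 (limma adjusted p up to 0.419).

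Of the interaction tests of ET3x2 against S limma called 0 members (0% of all genes, 3 members unadjusted), led by Psmd4 (-0.43 ± 0.14, limma adjusted p = 0.308) and Psmd14 (-0.35 ± 0.16, limma adjusted p = 0.505). Of those of ET3x2 against ET3x1 it called 0 (0.181% of all genes, 7 unadjusted), led by Psmd14 (-0.62 ± 0.16, limma adjusted p = 0.0853) and Psme3ip1 (0.32 ± 0.11, limma adjusted p = 0.162). It called 1 member without ET3x2 high salt replicate 1.

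Other genes of the ubiquitin and proteasome pathway were counted from a list. Of 28 listed genes 21 were tested, of which 4 were higher and 1 lower in ET3x1 on low salt, and 2 were higher in ET3x2. Nploc4, a cofactor of the p97 unfoldase, was higher by 0.51 ± 0.15 and 0.44 ± 0.15, and Nub1, which brings NEDD8 conjugates to the proteasome, by 0.37 ± 0.09 and 0.30 ± 0.09. Sem1, a small cap subunit whose symbol lacks the prefix, was higher in ET3x1 (0.33 ± 0.11). Pomp, the maturation factor of the 20S core, had 0.16 ± 0.06 (limma adjusted p = 0.0516) and 0.15 ± 0.06 (limma adjusted p = 0.102). The list's medians were 0.01 and 0.03, and those of the members 0.25 and 0.17; this difference between the lists was not tested.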

How the data were processed

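Biotin-labelled cRNA from the left kidney of each of 26 rats was run on RAE230A and RAE230B (52 arrays), per the labels' protocols, which also gave strain and diet. The authors' deposited values were log2 expression on a common scale, with array medians of 7.47 to 7.52 and 6.34 to 6.40. The summary and normalization method is not given in the sources used here. No litter or batch was labelled, each rat was a separate animal, and the number of arrays limits the precision.

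Affymetrix controls were dropped, then probe sets whose mean over the rats was under the median of the chip (7.51 and 6.38), leaving 7933 and 7540. For the 100 probe sets that both chips carry, RAE230A was used. Each chip was fitted with limma 3.58.1 in R 4.3.3, with 6 groups as coefficients, an intensity trend and 20 residual degrees of freedom. Tests were two-sided, with Benjamini-Hochberg adjustment over both chips. The fit was tested on simulated data. Symbols came from the platform annotation and matched the GRCr8 table for all 46 genes. Another 7 probe sets that list a member with another gene were left out, so Psmb6 and Psme3 were not tested as members. The probe set shared by Psmb6 and Psmb6l1 was called higher on low salt in ET3x1 (0.38 ± 0.11) and ET3x2 (0.49 ± 0.11). The one shared by Psma3 and Psma3l rose with salt in ET3x1 (0.51 ± 0.08, called). It had no call in S (0.19 ± 0.08) or ET3x2 (0.16 ± 0.08). RefSeq promoter windows were matched by gene identifier.

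The members, lists and alternatives were chosen with earlier results of these data known. Named genes are Psma7, the immunoproteasome and PA28 genes, and by comparison the 6 or 3 called members with the largest change each way, or the 2 largest statistics where none was called. Other members were named by role after their values were seen, as were Sem1 and Pomp, and the motifs were chosen then. Alternatives covered normalization, filter, trend, adjustment, weights, control ratios as covariates, the samples fitted, the probe set rule and leaving out each rat.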

Additional observations from a re-analysis of the deposited data

Results flagged for a closer look

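Within groups, 1 rat stood far from the rest for 10 of 192 combinations of probe set and group (32 probe sets); chance gives about 1 in 20. In ET3x1 on high salt these were Psmb9 in replicate 2 (7.73, nearest rat 8.09), Psmd7 in replicate 3 (9.60, nearest 9.85) and Psme3ip1 in replicate 4 (9.81, nearest 9.67). In ET3x2 on high salt they were Psme1 in replicate 2 (11.04, nearest 10.86), Psma2 in replicate 1 (10.32, nearest 10.15) and Psmd8 in replicate 3 (9.62, nearest 9.68). In ET3x1 on low salt they were Psmd4 in replicate 1 (8.56, nearest 8.76) and Psmd9 in replicate 2 (8.43, nearest 8.35). In S they were Psmg3 in replicate 1 on low salt (7.77, nearest 8.11) and in replicate 1 on high salt (7.96, nearest 8.17), which are different rats.

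The salt response differed between ET3x1 and S by the interaction test for Psma7 on RAE230A (-0.40), Psmd11 (-0.52), Psmd13 (-0.43), Psmd3 (-0.53) and Psmd4 (-0.50). Each of these genes was called higher in ET3x1 than in S on low salt by the same probe set. The RAE230B probe set of Psma7 and the second probe set of Psmd11 had no call in this interaction test. That of Psma7 was positive, at 0.14 to 0.39 over all alternatives.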

How the results depend on the processing

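No paired analysis was possible because the labels give no replicate numbers that rats of different groups share. Counts of members called, in either direction, are given by setting. Quantile normalization gave 8 for salt in ET3x1, 3 for ET3x2 against S on high salt and 5 for ET3x1 against S on high salt. No filter gave 1 for the salt response of ET3x1 minus S. The brightest 25% of probe sets (35 members tested) gave 11 for ET3x2 against S, 10 for it on low salt, 3 for salt in ET3x1 and 3 for the salt response of ET3x1 minus S. Adjustment within each chip gave 1 for ET3x1 against S on high salt. Array weights gave 1 for ET3x2 against ET3x1, 9 for salt over the strains (27.4% of all probe sets called), 13 in ET3x1 (31%) and 3 in ET3x2 (7.37%), and 15 (15.4%), 1 and 4 for the salt responses of ET3x1 minus S, ET3x2 minus S and ET3x2 minus ET3x1, and 3 and 7 for ET3x2 and ET3x1 against S on high salt. The Gapdh ratio as a covariate gave 0 for salt over the strains, for salt in ET3x1, for the salt response of ET3x1 minus S and for ET3x1 against S on high salt, and 8 for ET3x2 against S on low salt. The beta-actin ratio gave 1 for salt over the strains, 0 in S and 1 in ET3x1, and 0 for ET3x1 against S on high salt. The bioD minus bioC spike-in difference gave 0 for salt in S, 3 in ET3x1, 0 for the salt response of ET3x1 minus S, 10 for ET3x2 against S on low salt and 1 for ET3x1 against S on high salt. Fitting the compared groups alone gave 1 for salt in S, 8 in ET3x1, 5 for ET3x2 against S on low salt and 5 for ET3x1 against S on high salt. Averaging the probe sets of each gene gave 3 for salt in ET3x1. Without the 2 rats that stood apart the counts were 3 for ET3x2 against ET3x1, 1 for salt in S, 9 in ET3x1 and 1 in ET3x2, and 3 for ET3x2 against S on high salt. The causes were not tested. Under the alternatives other than leaving out 1 rat, ET3x1 against S kept counts of 17 to 28 on low salt and 14 to 26 averaged over the diets.

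Leaving out 1 rat at a time gave 12 to 23 for ET3x2 against S (7 to 23 on low salt and 0 to 2 on high salt) and 14 to 24 for ET3x1 against S (14 to 26 and 0 to 3). It gave 0 to 2 for ET3x2 against ET3x1, 3 to 7 for salt over the strains, 0 to 5 in S, 2 to 7 in ET3x1 and 0 to 1 in ET3x2. For the salt responses it gave 0 to 9 (ET3x1 minus S), 0 to 0 (ET3x2 minus S) and 0 to 1 (ET3x2 minus ET3x1).

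Signs turned for Psma7, in comparisons without a call. On RAE230A, ET3x2 against ET3x1 was 0.10 with quantile normalization, 0.019 without the 2 rats and -0.048 to 0.019 without 1 rat. Salt over the strains was -0.054 with quantile normalization, -0.016 with array weights, -0.019 without the 2 rats and -0.0092 to 0.036 without 1 rat. Salt in ET3x2 was 0.068 with the Gapdh ratio, 0.014 with bioD minus bioC and -0.069 to 0.066 without 1 rat. ET3x1 against S on high salt was 0.072 and 0.036 with these covariates and -0.055 to 0.012 without 1 rat. On RAE230B, ET3x1 against S was -0.010 with the Gapdh ratio and -0.043 to 0.080 without 1 rat. The 2 member probe sets below their chip's median gave no test, and 4 or 5 rats a group limit the precision.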
